A study of Mus musculus with 20 samples.

Results

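The Fanconi anemia crosslink repair genes were followed in mouse bone marrow and kidney after repeated dosing with oxaliplatin, a platinum drug that binds DNA and forms adducts and crosslinks. The group consisted of 10 genes, Fanca, Fancb, Fancc, Fancd2, Fance, Fancf, Fancg, Fanci, Fancl and Fancm, picked by gene symbol from the 55486 genes listed in both count tables. All 10 were listed in both tables and all 10 had enough counts to be tested in each tissue. The study used C57BL/6 mice that were 10 weeks old at the start. They received oxaliplatin at 10 mg/kg by intraperitoneal injection in 5% dextrose, or 5% dextrose alone as the vehicle, over 8 weeks. Bulk RNA was sequenced from 5 vehicle and 5 oxaliplatin libraries of bone marrow and the same number of kidney libraries, 20 in all. The marrow was that of tibia and femur, taken 6 days after dosing ended, and no separate collection time was given for kidney. The 2 tissues were extracted by different RNA methods, so tissue and extraction cannot be told apart.

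The Fanconi anemia pathway repairs DNA interstrand crosslinks, lesions that tie the strands of the double helix together and stop replication forks. FANCM recognises the stalled fork and anchors a core complex made of FANCA, FANCB, FANCC, FANCE, FANCF, FANCG and FANCL, in which FANCL is the ubiquitin ligase. Working with the conjugating enzyme UBE2T, the core complex places ubiquitin on FANCD2 and FANCI, and the marked pair directs nucleases, translesion polymerases and homologous recombination to the lesion. Inherited loss of core complex genes such as FANCA causes bone marrow failure, and cells that lack the pathway are hypersensitive to crosslinking drugs.

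The libraries held between 30660153 and 41140527 counts in marrow and between 24393007 and 30925430 in kidney. Values are given as CPM, counts relative to a library size scaled by the TMM method, with the SD over 5 libraries. A gene was called when its Benjamini-Hochberg adjusted p in edgeR's two-sided quasi-likelihood test was under 0.05 and its change was beyond 1.5-fold. The 8 genes of a late neutrophil list summed to 9454 CPM in vehicle marrow and 2.79 CPM in vehicle kidney, while 10 proximal tubule genes summed to 28120 CPM in vehicle kidney and 795 CPM in vehicle marrow, where Aqp1, the water channel that red cells also carry, was the most abundant. Methods name mice of both sexes, but all 20 libraries had RNA of 4 Y-linked genes and at most 2.88 CPM of Xist. The Y-linked sum ranged from 77.5 to 110.5 CPM in kidney. In marrow it was 99.2 CPM in oxaliplatin library 5 and between 133.2 and 173 CPM in the other libraries.

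In bone marrow, 4 of the 10 genes fell beyond the call limits and none rose. The called genes were Fancl, Fanci, Fancd2 and Fancm, which stand for the ligase, both of its substrates and the anchor. Across all 22363 genes tested in marrow 11.8% were called lower and 11.6% higher. At an adjusted p under 0.05 with no fold limit, 7 of 10 fell, against 16.8% of all genes lower and 16.3% higher. In 6 of 10 every oxaliplatin library lay below every vehicle library, a separation seen in 13.5% of all tested genes in that direction and in 11.4% in the other. DESeq2 also counted 0 of the 10 higher, and at an unadjusted p under 0.05 in edgeR 1 gene, Fance, was higher. The median log2 fold change was -0.51 over the 10 genes and -0.04 over all genes tested. Together the 10 genes took 355 ± 18.1 CPM with vehicle and 237 ± 16.8 CPM with oxaliplatin (SD, n = 5). The difference is one of RNA per library, in which fewer cells that express a gene and less RNA per cell cannot be told apart.

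**Figure D1:**
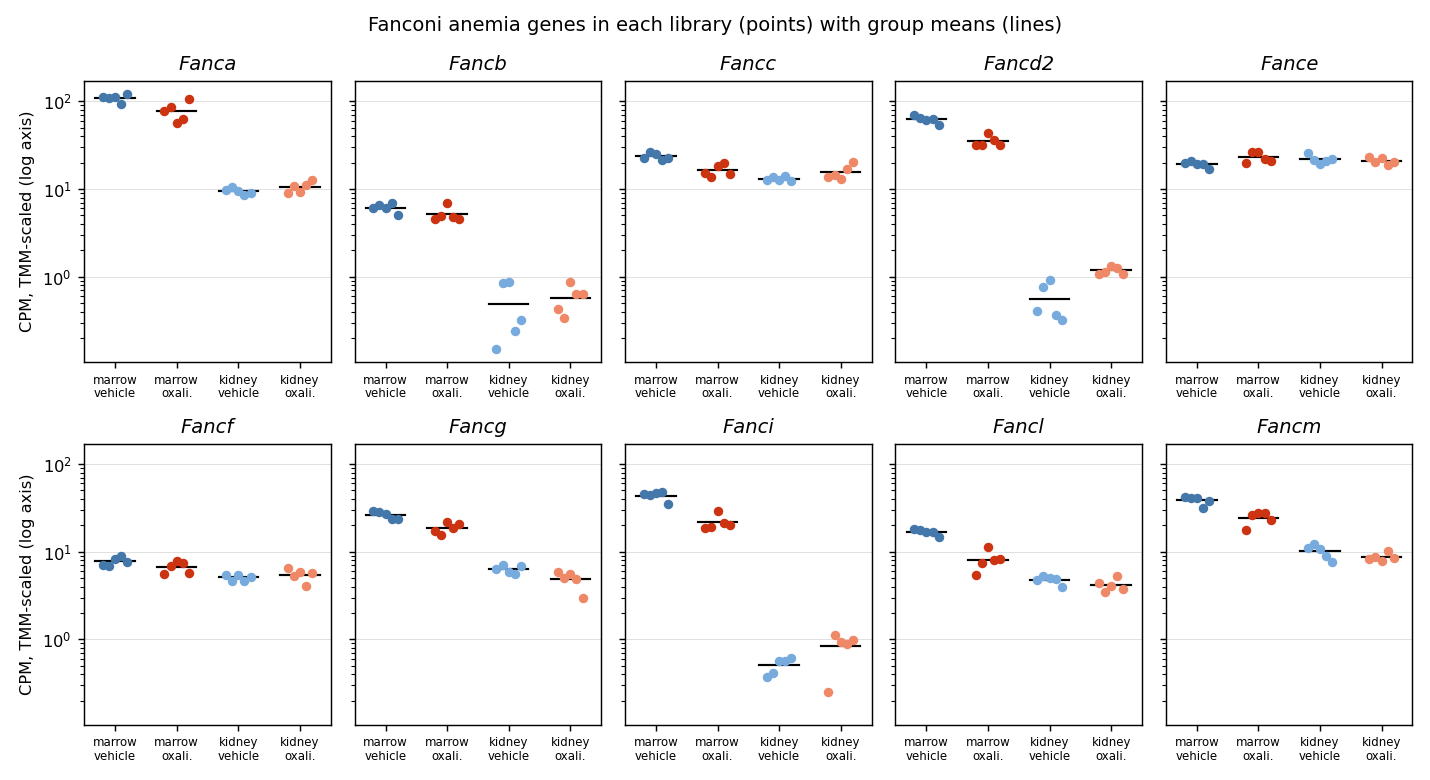
CPM on a log axis for each of the 10 genes in each library (points, 5 per group) with group means (lines), for vehicle and oxaliplatin libraries of marrow and kidney. Fancd2, Fanci, Fancl and Fancm sit lower in oxaliplatin marrow with no overlap, Fance does not, and Fancd2 and Fanci lie near or below 1 CPM in kidney.

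Fancd2 (ENSMUSG00000034023, GRCm38 chromosome 6 from 113531682 to 113597017, plus strand), a substrate of the ligase, read 70.5, 64.7, 62.0, 63.3 and 54.4 CPM in the 5 vehicle marrow libraries. With oxaliplatin it read 31.8, 31.8, 43.3, 35.9 and 31.9 CPM. All 5 treated libraries were below the lowest vehicle library, and the third treated library was the highest of its group. Fancd2 fell by 44.5% (log2 fold change -0.85, standard error 0.11, edgeR adjusted p = 5.63e-05). Fanci (ENSMUSG00000039187, chromosome 7 from 79391929 to 79450264, plus strand), the partner of FANCD2, read 45.5, 43.9, 46.5, 47.6 and 34.9 CPM with vehicle. It read 18.8, 19.2, 29.0, 21.1 and 20.1 CPM with oxaliplatin. The groups again did not overlap, and the same treated library was the highest. Fanci fell by 50.5% (log2 fold change -1.01, standard error 0.13, edgeR adjusted p = 7.43e-05).

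Fancl (ENSMUSG00000004018, chromosome 11 from 26386135 to 26471876, plus strand), which encodes the catalytic subunit of the core complex, had the largest estimated fall of the 10 genes, within a standard error of that of Fanci. It read 18.3, 17.6, 16.9, 16.7 and 14.6 CPM with vehicle and 5.36, 7.40, 11.4, 7.99 and 8.33 CPM with oxaliplatin. The groups did not overlap, and the treated libraries spread more widely for their mean, with an SD of 26.8% of it against 8.23% with vehicle. Fancl fell by 51.8% (log2 fold change -1.05, standard error 0.17, edgeR adjusted p = 3.78e-04). Fancm (ENSMUSG00000055884, chromosome 12 from 65075603 to 65132058, plus strand), the anchor and a DNA translocase, read 42.5, 40.7, 40.5, 31.9 and 38.02 CPM with vehicle and 17.7, 26.0, 27.5, 27.7 and 23.0 CPM with oxaliplatin. Its first treated library was well below the rest. Fancm fell by 37.0% (log2 fold change -0.67, standard error 0.13, edgeR adjusted p = 0.00144), and without that library the log2 fold change of -0.57 was no longer beyond 1.5-fold.

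Among the other core subunits, Fancc, Fancg and Fanca fell by less than 1.5-fold. Fancc (ENSMUSG00000021461, chromosome 13 from 63285043 to 63497278, minus strand) went from 23.5 ± 2.18 to 16.3 ± 2.502 CPM (log2 fold change -0.53, standard error 0.12, edgeR adjusted p = 0.00428). Fancg (ENSMUSG00000028453, chromosome 4 from 43002343 to 43010506, minus strand) went from 26.3 ± 2.56 to 18.7 ± 2.53 CPM (log2 fold change -0.49, standard error 0.12, edgeR adjusted p = 0.00487). The groups of both genes did not overlap. Fanca (ENSMUSG00000032815, chromosome 8 from 123268300 to 123318576, minus strand) read 112.8, 109.4, 112.7, 92.7 and 121.8 CPM with vehicle and 77.02, 86.8, 56.5, 63.6 and 105 CPM with oxaliplatin. The groups overlapped because the fifth treated library lay above the fourth vehicle library. Fanca fell within the fold limit (log2 fold change -0.50, standard error 0.15, edgeR adjusted p = 0.0208). This call at an adjusted p under 0.05 was lost when vehicle library 5 (adjusted p = 0.0525) or oxaliplatin library 4 (adjusted p = 0.0545) was left out, and with library size alone as the scaling (adjusted p = 0.0831). The test against a change of 1.5-fold also lost it. Fanca was beyond 1.5-fold with a covariate of Y-linked genes (log2 fold change -0.75, adjusted p = 5.42e-04) and without oxaliplatin library 5 (-0.59, adjusted p = 0.00286), the marrow library with the least Y-linked RNA. That covariate was not independent of treatment. The Y-linked sum averaged 163 ± 7.35 CPM with vehicle and 142 ± 26.7 CPM with oxaliplatin, and its gene Kdm5d fell (log2 fold change -0.50, edgeR adjusted p = 0.00356).

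Fancb, Fancf and Fance, which encode the remaining core subunits, did not pass the test in marrow and their groups overlapped. Fancb (ENSMUSG00000047757, chromosome X from 164980592 to 164997272, plus strand) averaged 6.10 ± 0.698 CPM with vehicle and 5.12 ± 0.976 CPM with oxaliplatin (log2 fold change -0.25, edgeR adjusted p = 0.276). For Fancf (ENSMUSG00000092118, chromosome 7 from 51860577 to 51862267, minus strand, a gene of 1 exon) the means were 7.74 ± 0.820 and 6.72 ± 1.04 CPM (log2 fold change -0.20, edgeR adjusted p = 0.325). Fance (ENSMUSG00000007570, chromosome 17 from 28313519 to 28326572, plus strand), the subunit that binds FANCD2, was the single gene of the group with a positive estimate. It read 19.7, 20.9, 19.4, 19.3 and 17.1 CPM with vehicle and 19.8, 26.7, 26.5, 22.1 and 20.7 CPM with oxaliplatin. Treated libraries 1 and 5 lay within the vehicle range and the other 3 above it. Its log2 fold change was 0.26 (standard error 0.11, edgeR adjusted p = 0.0875), and it passed under 2 alternatives, with library size alone as the scaling (0.41, adjusted p = 0.0105) and without oxaliplatin library 5 (0.35, adjusted p = 0.0487).

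Several of these genes share exonic bases with a gene on the other strand, and the sources used here do not say whether counting used strand, so reads in the shared stretches cannot be assigned to one gene. The share of exonic bases was 16.4% for Fancc with Gm16133, 16.0% for Fanci with Polg, 15.0% for Fancf with Gas2 and 13.7% for Fancl with Vrk2. It was 10.5% for Fanca with Zfp276, 5.51% for Fancm with Gm47870, 3.26% for Fance with Gm49886 and 3.24% for Fancd2 with Fancd2os. Fancc also shared 2.21% with Aopep, and Fancm 1.56% with Gm47869. In marrow Vrk2, a kinase gene, fell together with Fancl, from 23.1 to 17.0 CPM (log2 fold change -0.44, edgeR adjusted p = 0.00644), and the low Gm16133 fell from 2.36 to 1.10 CPM (log2 fold change -1.10, edgeR adjusted p = 0.0283). Polg, which encodes the mitochondrial DNA polymerase, averaged 122 CPM with vehicle and 105 CPM with oxaliplatin (log2 fold change -0.22, edgeR adjusted p = 0.0656). Gm16133 rose in kidney, from 0.256 to 0.711 CPM (log2 fold change 1.47, edgeR adjusted p = 0.028). In kidney Gas2, which overlaps Fancf, was far more abundant than in marrow, at 240.2 CPM with vehicle against 8.22 CPM, and it fell to 155.5 CPM with oxaliplatin (log2 fold change -0.63, edgeR adjusted p = 0.00241). The part of these overlaps in the values of the Fanconi anemia genes was not tested.

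Promoter sequence was read for the 9 genes with an entry in RefSeq promoters of GRCm38.p6, each covering 250 bases before and 50 after the start. Fancd2 had no entry, so its promoter was not read. The letters searched on both strands were those of E2F sites (TTTCCCGC, TTTCGCGC, TTTGCCGC and TTTGGCGC), of the cell-cycle homology region (TTTGAA and TTCGAA) and CCAAT. None of the 9 promoters held the cell-cycle homology letters, 1 held E2F letters and 6 held CCAAT, against 19.2%, 2.26% and 37.4% of 32851 promoters. A match is a run of letters and not a measured site. The RefSeq start equals the first base of the GENCODE gene model for 4 of the 9 genes and lies 11 bases inside it for Fance, 205 for Fancg, 409 for Fanci, 949 for Fancl and 65533 for Fancc, so these counts describe RefSeq starts and not every start of the genes measured. The sequences printed are the 250 bases before the start of Fancm, which was called lower in marrow, and of Fance, which was not (chr12:65075353-65075602 and chr17:28313280-28313529, plus strand), and 30 bases around the one E2F match, in Fancg (chr4:43010335-43010364, minus strand). Capitals mark the matches, CCAAT in Fancm, CCAAT read on the other strand in Fance and TTTCCCGC in Fancg.
Fancm: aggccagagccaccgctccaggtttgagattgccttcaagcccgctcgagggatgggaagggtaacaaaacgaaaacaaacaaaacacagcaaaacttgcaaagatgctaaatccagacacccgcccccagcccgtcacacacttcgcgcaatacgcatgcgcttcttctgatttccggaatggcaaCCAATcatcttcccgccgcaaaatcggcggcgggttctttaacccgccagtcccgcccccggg
Fance: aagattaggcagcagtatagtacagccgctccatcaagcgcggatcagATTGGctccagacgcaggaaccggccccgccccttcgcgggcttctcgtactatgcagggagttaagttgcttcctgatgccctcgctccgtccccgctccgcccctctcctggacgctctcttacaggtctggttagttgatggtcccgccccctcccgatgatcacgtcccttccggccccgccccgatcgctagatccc
Fancg: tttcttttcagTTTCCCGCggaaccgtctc
The CCAAT letters lie 63 to 59 bases before the start of Fancm and 202 to 198 before that of Fance, and the E2F letters 52 to 45 bases before that of Fancg. An exon of Gm47870, a gene on the other strand, covers all 250 bases shown for Fancm. The stretch shown for Fancg is exonic in its GENCODE gene model.

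In kidney, 1 of the 10 genes rose beyond the call limits, Fancd2, and none fell. Across the 19293 genes tested in kidney 7.68% were called higher and 3.81% lower. With no fold limit Fancd2 remained the single gene that rose, against 14.4% of all genes higher and 15% lower. It was also the single gene whose groups did not overlap, a pattern of 9.69% of all tested genes in that direction and 11% in the other. DESeq2 also counted 0 of the 10 lower, and at an unadjusted p under 0.05 in edgeR 2 genes, Fancd2 and Fancc, were higher and 1, Fancg, was lower. The summed level of the 10 genes was 72.3 ± 4.32 CPM with vehicle and 73.2 ± 2.57 CPM with oxaliplatin.

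Fancd2 read 0.411, 0.762, 0.907, 0.362 and 0.324 CPM in the vehicle kidney libraries, which corresponds to 11, 20, 21, 9 and 8 counts. With oxaliplatin it read 1.08, 1.15, 1.33, 1.26 and 1.08 CPM, from 30, 34, 37, 36 and 36 counts. Every treated library was above every vehicle library. The mean was 2.13-fold higher (log2 fold change 1.09, standard error 0.31, edgeR adjusted p = 0.0145). The gain rests on a low level, and the call was lost when each gene was tested against a change of 1.5-fold (adjusted p = 0.347). Fancd2os, whose exons overlap those of Fancd2 on the other strand, moved the other way in kidney, from 4.13 to 1.21 CPM (log2 fold change -1.77, edgeR adjusted p = 4.37e-05).

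Fanci read 0.373, 0.419, 0.562, 0.564 and 0.608 CPM in vehicle kidney and 0.251, 1.11, 0.935, 0.877 and 0.990 CPM with oxaliplatin, from between 7 and 33 counts. Treated library 1 was below every vehicle library and the other 4 were above every one. The log2 fold change was 0.73 (standard error 0.36, edgeR adjusted p = 0.145), and without treated library 1 Fanci passed at 0.96 (adjusted p = 0.0279). Fancc averaged 13.1 ± 0.685 CPM with vehicle and 15.6 ± 2.96 CPM with oxaliplatin (log2 fold change 0.26, edgeR adjusted p = 0.0982), with treated library 5 highest at 20.2 CPM. It passed with library size alone as the scaling (0.40, adjusted p = 0.025) and without treated library 3 (0.32, adjusted p = 0.043). Fancg averaged 6.31 ± 0.593 and 4.87 ± 1.13 CPM (log2 fold change -0.38, edgeR adjusted p = 0.0917), with treated library 5 lowest at 2.97 CPM. The other 6 genes had log2 fold changes between -0.23 for Fancm and 0.26 for Fancb, and adjusted p values between 0.205 and 0.697 in edgeR. Fancb rested on between 4 and 24 counts per library in kidney.

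**Figure D2:**
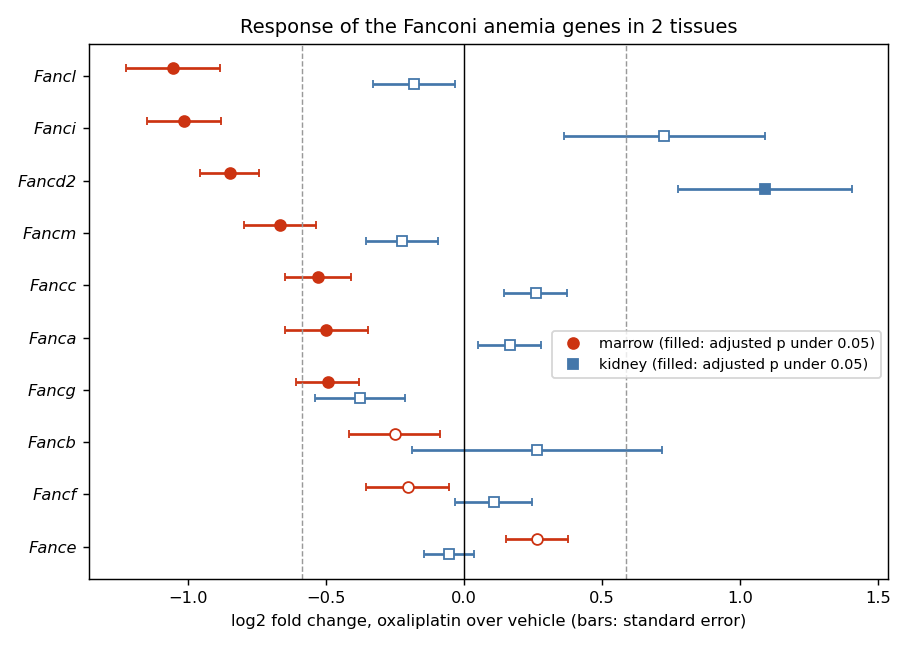
Log2 fold change of each gene, oxaliplatin over vehicle, in marrow (circles) and kidney (squares), with standard errors as bars and filled symbols where the edgeR adjusted p was under 0.05. Dashed lines mark a change of 1.5-fold. Fancd2 and Fanci lie at -0.85 and -1.01 in marrow and at 1.09 and 0.73 in kidney.

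Whether the response differed between the tissues was tested directly, as the tissue by treatment interaction in all 20 libraries. For 5 of 10 genes the change in kidney lay above the change in marrow at an adjusted p under 0.05, and for none below it, against 13.1% and 17% of all 24321 genes tested. The difference on the log2 scale was 1.88 for Fancd2 (standard error 0.27, edgeR adjusted p = 1.34e-05) and 1.68 for Fanci (standard error 0.34, edgeR adjusted p = 6.1e-04). Smaller differences were found for Fancl (0.80, edgeR adjusted p = 0.0137), Fancc (0.72, edgeR adjusted p = 0.00409) and Fanca (0.61, edgeR adjusted p = 0.0137). The estimate for Fance was -0.38 (edgeR adjusted p = 0.0721), and it was the single gene past an unadjusted p under 0.05 in that direction. DESeq2 gave the same 5 genes. Fancm, although called in marrow and not in kidney, had a difference of 0.38 with an adjusted p of 0.171 in edgeR, so a difference between the tissues was not shown for it in that fit. The count of 5 ran from 4 to 6 over the alternatives. With at least 10 counts in every library Fancm passed (0.49, adjusted p = 0.0467) while Fancd2 and Fanci could not be tested. Fance passed without marrow oxaliplatin library 1 (-0.48, adjusted p = 0.0219) or 5 (-0.47, adjusted p = 0.0293).

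The tissues also differed in how much of each gene the vehicle libraries held. These folds depend on how the tissues are scaled to each other. They were fitted with 1 TMM scaling over all 20 libraries, while the CPM printed above were scaled within each tissue. Between vehicle groups 7 of 10 genes were called lower in kidney and 1 higher, against 38.3% and 34.6% of all genes tested. The scaling within each tissue and library size alone each gave 9 lower and none higher. The substrates differed most. Fancd2 was 84.5-fold and Fanci 64.1-fold higher in marrow (edgeR adjusted p = 1.82e-18 and 3.06e-16), and 114-fold and 86.4-fold higher on the scale of the printed CPM. Fancb followed at 9.36-fold and Fanca at 8.61-fold. Fancg, Fancm and Fancl were 3.09-fold, 2.83-fold and 2.62-fold higher in marrow. These 7 genes were called under both of the other scalings too. The other genes turned on the scaling. Fance was 1.53-fold higher in kidney over all 20 libraries (edgeR adjusted p = 2.96e-05) and 1.14-fold with scaling within each tissue (edgeR adjusted p = 0.111). Its call was also lost in DESeq2, at 1.47-fold, and without marrow vehicle library 5 or kidney vehicle library 1. The same held with at least 10 counts in every library, at 1.31-fold, and without marrow oxaliplatin libraries 3 and 4 together, at 1.47-fold. Fancc was 1.33-fold higher in marrow, within the fold limit, and 1.80-fold with scaling within each tissue. Fancf was 1.13-fold higher in marrow (edgeR adjusted p = 0.29) and 1.52-fold with scaling within each tissue (edgeR adjusted p = 5.96e-04).

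To compare levels between genes, CPM were divided by the exonic length of each gene in kilobases. In vehicle marrow Fanca led with 12.5 ± 1.22 CPM per kilobase, above the range of every other gene. Fancd2 (7.93), Fanci (7.56), Fancg (6.93) and Fance (6.04) followed with ranges that overlapped from one neighbour to the next, as did Fancl (4.99) and Fancf (4.58). Fancm (3.71), Fancc (2.81) and Fancb (2.04) were lowest. In vehicle kidney the order was different, with Fance first at 6.86 ± 0.739 CPM per kilobase and Fancf next at 3.01 ± 0.242, each separate from its neighbours, although Fancf shares exonic bases with the abundant Gas2 there. Fancg, Fancc, Fancl, Fanca and Fancm lay between 1.66 and 0.973 with overlapping neighbours. Fancb (0.162), Fanci (0.0875) and Fancd2 (0.0697) came last, with ranges that overlapped from one neighbour to the next.

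The wider pathway was read from 4 lists of DNA repair genes. In marrow, of 12 partners of the core complex and the anchor, 3 were called lower and 1 higher, and 7 fell and 1 rose at an adjusted p under 0.05, with a median log2 fold change of -0.32. Of all marrow genes 11.8% were called lower and 11.6% higher, and 16.8% fell and 16.3% rose at that adjusted p, so the share of partners that rose is no higher than the background. Ube2t, the conjugating enzyme that serves FANCL, fell from 16.5 ± 2.03 to 7.73 ± 2.19 CPM (log2 fold change -1.09, edgeR adjusted p = 4.15e-04). Rmi2, a subunit of the complex that dissolves joined DNA molecules, fell from 21.5 to 11.4 CPM (log2 fold change -0.92, edgeR adjusted p = 1.21e-04), and Blm, the helicase of the same complex, was the other gene called lower. Faap20, which encodes a ubiquitin-binding subunit attached to FANCA, rose from 11.8 to 18.2 CPM (log2 fold change 0.63, edgeR adjusted p = 7.15e-04). Usp1, the enzyme that removes ubiquitin from FANCD2, averaged 142 ± 11.1 and 115 ± 20.3 CPM (log2 fold change -0.31, edgeR adjusted p = 0.0567).

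Downstream of the ubiquitin mark, 9 of 10 recombination genes were called lower in marrow, with a median log2 fold change of -0.84, and the groups of all 9 did not overlap. Brca1 fell from 127.7 ± 10.2 to 51.1 CPM (log2 fold change -1.32, edgeR adjusted p = 1.5e-05). Brca2, which acts in homologous recombination, fell from 112 to 49.5 CPM (log2 fold change -1.18, edgeR adjusted p = 8.93e-06). Xrcc2, another recombination gene, was the gene that did not pass (log2 fold change -0.27, edgeR adjusted p = 0.134). Of 14 incision and lesion bypass genes 2 were called lower, the helicase gene Helq (log2 fold change -0.78, edgeR adjusted p = 3.19e-04) and the nuclease subunit gene Eme1 (log2 fold change -0.61, edgeR adjusted p = 0.00623). That share is close to the 11.8% of all marrow genes called lower. At an adjusted p under 0.05 with no fold limit 7 of the 14 fell, against 16.8% of all genes, and 1 rose, and the groups of 7 did not overlap in the lower direction, against 13.5% of all genes. The median log2 fold change of the list was -0.41. The other 5 that fell were the nuclease scaffold gene Slx4, the lesion bypass polymerase genes Rev3l and Rev1, and the nuclease genes Dclre1a and Dclre1b, with log2 fold changes between -0.54 and -0.35 and edgeR adjusted p between 2.85e-04 and 0.00852. Ercc1, the partner of the XPF nuclease, was the one that rose (log2 fold change 0.34, edgeR adjusted p = 0.048). Of 12 damage signalling genes 3 were called lower, led by Clspn, the adaptor for CHK1 activation (log2 fold change -1.06, edgeR adjusted p = 1.21e-04), and Rpa2, a subunit that binds single-stranded DNA (log2 fold change -0.63, edgeR adjusted p = 0.00742), with Topbp1, an activator of ATR, the third. With library size alone as the scaling, 1 gene of each of these 2 lists was called lower.

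In kidney the repair lists held 5 called genes among those tested, each of them higher, a share near the background, where 7.68% of all kidney genes were called higher and 3.81% lower. With at least 10 counts in every library the recombination calls went from 3 to 1 and the damage signalling call was lost, and with library size alone the recombination calls were 4. Of the recombination genes 3 of 10 were called higher and none lower, with a median log2 fold change of -0.0037. Brca1 rose from 0.787 ± 0.295 to 1.98 ± 0.693 CPM (log2 fold change 1.34, edgeR adjusted p = 0.00374), and Bard1, the partner of BRCA1, was also called. Brca2 rose within the fold limit, from 4.47 to 6.69 CPM (log2 fold change 0.58, edgeR adjusted p = 0.0305). Among 10 core and anchor partners tested, Blm rose (log2 fold change 1.06, edgeR adjusted p = 0.0161), and among 12 damage signalling genes Clspn rose (log2 fold change 1.06, edgeR adjusted p = 0.0418) while Hus1, a subunit of the checkpoint clamp, fell within the fold limit (log2 fold change -0.30, edgeR adjusted p = 0.00756). None of the 12 incision and lesion bypass genes tested was called in edgeR, where 4 passed an unadjusted p under 0.05, 3 higher and 1 lower. Of these Slx1b, a nuclease subunit gene, rose within the fold limit (log2 fold change 0.40, edgeR adjusted p = 0.0397). Usp1 averaged 24.9 CPM with vehicle and 22.8 CPM with oxaliplatin (log2 fold change -0.12, edgeR adjusted p = 0.305). Ube2t, at 0.273 CPM with vehicle and 0.307 CPM with oxaliplatin, was too low to be tested.

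**Figure D3:**
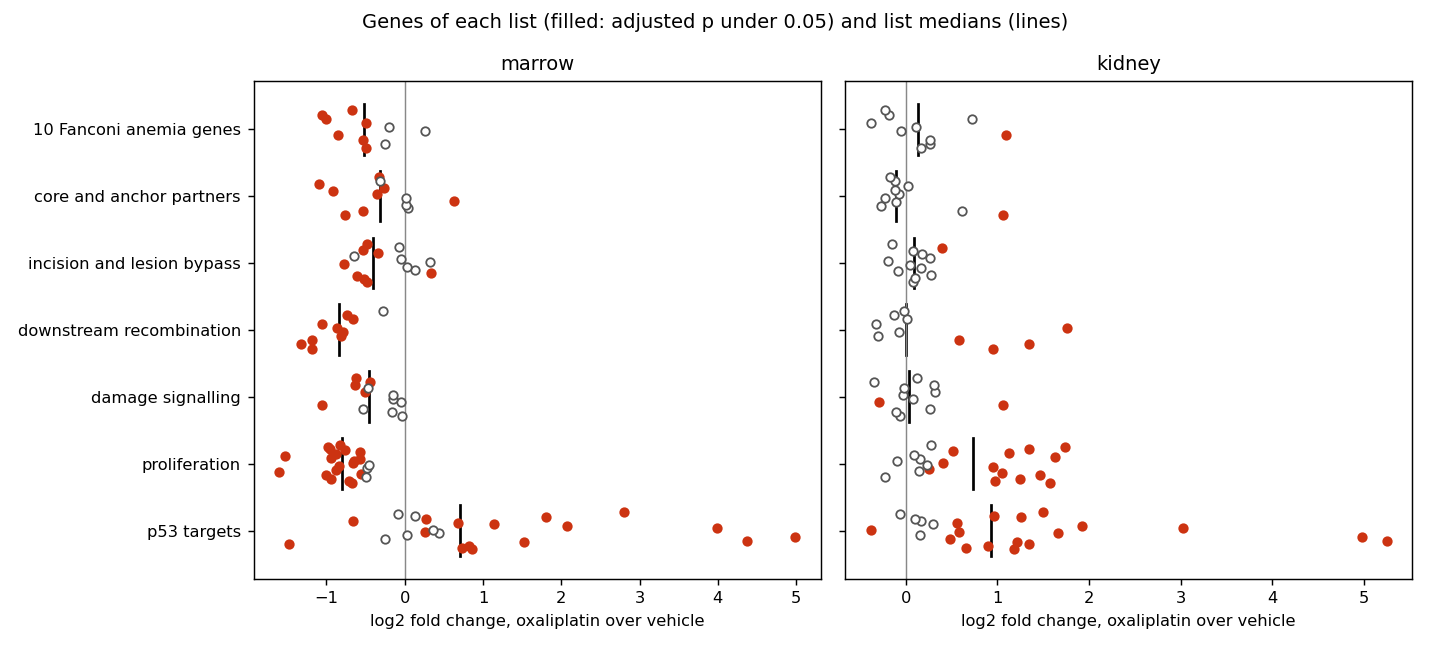
Log2 fold change of every tested gene (points, filled where the edgeR adjusted p was under 0.05) in the 10 Fanconi anemia genes, 4 repair lists, a proliferation list and a p53 target list, with list medians (lines), in marrow and kidney. Medians of the Fanconi anemia, recombination and proliferation lists are -0.51, -0.84 and -0.80 in marrow and 0.14, -0.0037 and 0.73 in kidney.

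Genes of S phase and mitosis, taken as a proliferation list, were read in the same libraries. In marrow 16 of 22 proliferation genes were called lower and none higher, with a median log2 fold change of -0.80. Cdc6, which licenses replication origins, had the largest fall (log2 fold change -1.60, edgeR adjusted p = 3.86e-04), followed by Mki67, which encodes the Ki-67 antigen, from 3156 ± 245 to 1096 CPM (log2 fold change -1.53, edgeR adjusted p = 1.99e-06). The summed level of the list ranged from 7222 to 9389 CPM with vehicle and from 3001 to 5848 CPM with oxaliplatin. Treated library 3, the highest of its group for Fancd2, Fanci, Fancl, Fancg, Fancf and Fancb but the lowest for Fanca, was the highest for this list. In kidney 10 of 20 tested genes of the list were called higher and none lower, led by Top2a, the topoisomerase of dividing cells (1.74 to 5.81 CPM, log2 fold change 1.74, edgeR adjusted p = 9.21e-06), and Mki67 (3.22 to 10.0 CPM, log2 fold change 1.63, edgeR adjusted p = 5.19e-05). The summed list ranged from 126 to 146 CPM with vehicle and from 163 to 192 CPM with oxaliplatin, with Pcna the most abundant. The part of the proliferation genes in the Fanconi anemia values was not tested.

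Within each marrow library the 10 genes were also set against that list, as log2 CPM of the gene minus the mean log2 CPM of the 22 proliferation genes. The list mean itself was 7.74 with vehicle and 6.88 with oxaliplatin. Relative to it Fancd2 lay at -1.77 ± 0.129 with vehicle and -1.76 ± 0.231 with oxaliplatin (SD, n = 5). Fanci and Fancl lay 0.17 and 0.24 lower with oxaliplatin, and Fancm, Fancc, Fanca and Fancg between 0.18 and 0.36 higher. Fance, Fancf and Fancb lay 1.11, 0.65 and 0.60 higher. A gene with the same CPM in both groups would also lie higher on this scale, by the fall of the list mean. No test was made of these differences.

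**Figure D4:**
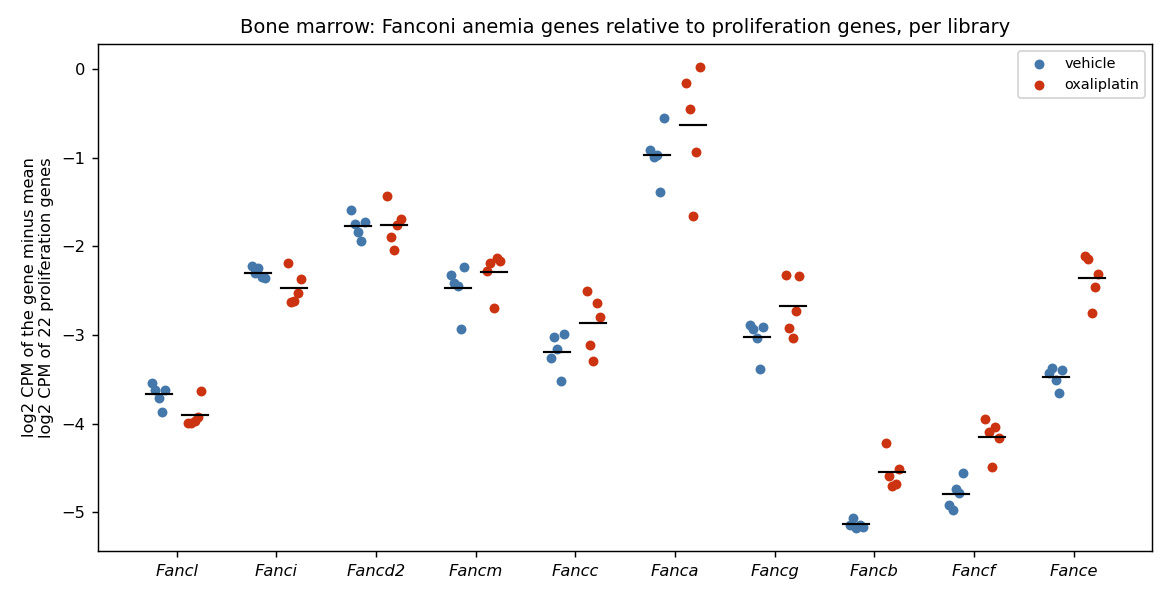
Log2 CPM of each gene minus the mean log2 CPM of 22 proliferation genes in the same marrow library (points, 5 per group, with group means as lines). Fancd2 sits at -1.77 and -1.76 in the vehicle and oxaliplatin groups, while Fancb, Fancf and Fance sit higher with oxaliplatin, as would any gene at the same CPM in both groups.

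The p53 target list was read beside the repair genes because p53 responds to DNA damage. In marrow 12 of 22 targets were called higher and 2 lower, and in kidney 13 higher and none lower, where Perp fell within the fold limit (log2 fold change -0.38, edgeR adjusted p = 0.00133). Eda2r, a death receptor family gene, and Cdkn1a, which encodes the cell-cycle inhibitor p21, had the largest rises in both tissues. Eda2r rose from 0.254 to 8.12 CPM in marrow (log2 fold change 4.99, edgeR adjusted p = 2.34e-06) and from 0.295 to 9.40 CPM in kidney (log2 fold change 4.98, edgeR adjusted p = 2.26e-10). Cdkn1a rose from 3.04 to 115 CPM in kidney (log2 fold change 5.25, edgeR adjusted p = 7.2e-06). Its log2 fold change in marrow was 4.37 (edgeR adjusted p = 1.3e-08). Btg2 and Sesn1, an antiproliferative gene and a stress-response gene, were the targets that fell in marrow (log2 fold change -1.48 and -0.67, edgeR adjusted p = 2.07e-06 and 7.08e-05). With library size alone as the scaling, 1 of the p53 targets was called lower in marrow.

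Markers of several marrow cell types changed in the same libraries. All 14 late erythroid genes were called lower in marrow, and their summed level ranged from 29380 to 49840 CPM with vehicle and from 4175 to 9472 CPM with oxaliplatin, with Hba-a1 the most abundant. Of 12 early erythroid genes 9 were called lower (3136 to 4150 CPM with vehicle, 1260 to 2476 CPM with oxaliplatin, Zfpm1 the most abundant), and of 14 B lineage genes 11 (445 to 772 CPM with vehicle, 130 to 226 CPM with oxaliplatin). The most abundant B lineage gene was Pax5 with vehicle and Ebf1 with oxaliplatin. None of 8 early or 8 late neutrophil genes was called in edgeR, where 3 early genes passed an adjusted p under 0.05 within the fold limit and 4 genes of both lists passed an unadjusted p under 0.05, 2 higher and 2 lower. The late list, with S100a9 the most abundant, summed to between 8315 and 9964 CPM with vehicle and to 10900, 10680, 3927, 5041 and 13250 CPM in treated libraries 1 to 5, so libraries 3 and 4 stood apart, and these 2 also had the least Fanca. The part of the neutrophil genes in the Fanca values was not tested. Without both of them, a setting chosen after the data were seen, 5 of the 10 Fanconi anemia genes were called lower, Fancc in addition, and Fanca passed with a log2 fold change of -0.29 (edgeR adjusted p = 0.049). Of 8 megakaryocyte genes 6 were called higher, and of 12 monocyte and macrophage genes 5, Csf1r, Mrc1, C1qa, C1qb and C1qc. The monocyte and macrophage list summed to between 1456 and 1901 CPM with vehicle and between 1568 and 3415 CPM with oxaliplatin, so the groups overlapped. Ccr2, Ms4a6c, Ly86 and Cd5l had negative estimates (log2 fold change between -0.45 and -0.24) and did not pass an adjusted p under 0.05. Of 8 endothelial genes 5 were called higher (297 to 399.6 CPM with vehicle, 524 to 802 CPM with oxaliplatin). The most abundant in that list was Pecam1 with vehicle and Ehd3 with oxaliplatin. Of 12 T and NK genes 2 were called lower (103.7 to 140.5 CPM with vehicle, 52.7 to 85.1 CPM with oxaliplatin, Cd4 the most abundant). Most of the fall in that sum came from Cd4, at 78.7 CPM with vehicle and 28.5 CPM with oxaliplatin (log2 fold change -1.47, edgeR adjusted p = 2.21e-05). The median log2 fold change of the list was -0.11, and 9 genes did not pass an adjusted p under 0.05. Some of those 9 had positive estimates, such as Cd3e (log2 fold change 0.38, edgeR adjusted p = 0.173). Of 10 stem and progenitor genes 4 were called higher and 1 lower, with a median log2 fold change of 0.33. Their sum was lower, at 344 ± 16.8 CPM with vehicle and 273 ± 40.5 CPM with oxaliplatin. The gene called lower, Myb, was the most abundant, at 225 and 131 CPM (log2 fold change -0.78, edgeR adjusted p = 0.00103). None of the genes in these lists was at 0 in every marrow library. The part of cell makeup in the Fanconi anemia values was not tested.

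In kidney the proximal tubule list had 3 of 10 genes called lower (26210 to 30930 CPM with vehicle, 16240 to 22530 CPM with oxaliplatin, Slc34a1 the most abundant). Most of the fall in that sum came from Kap, an androgen-regulated tubule gene, at 8268 CPM with vehicle and 2220 CPM with oxaliplatin (log2 fold change -1.90, edgeR adjusted p = 0.0437). The median log2 fold change of the list was 0.02, and Cubn and Slc5a12, an endocytic receptor gene and a transporter gene, rose within the fold limit (log2 fold change 0.32 and 0.42, edgeR adjusted p = 0.00802 and 0.00701). The monocyte and macrophage list had 6 of 12 lower and 1 higher (118 to 151 CPM with vehicle, 70.1 to 86.8 CPM with oxaliplatin, Csf1r the most abundant). The podocyte list had 4 of 6 higher and the endothelial list 3 of 8 (466 to 507 CPM with vehicle, 567 to 861.5 CPM with oxaliplatin, Plvap the most abundant). Of 6 tubule injury genes tested 2 were called higher, Spp1 and Lcn2, and the sum of that list ranged from 496 to 566 CPM with vehicle and from 705 to 794 CPM with oxaliplatin. Of 6 loop and distal tubule genes 2 rose within the fold limit, and of 7 collecting duct genes also 2. Of the early neutrophil genes none of 8 could be tested, and Ctsg and Ms4a3 were at 0 in every kidney library. Among B lineage genes Rag1 was at 0 in every kidney library and 4 of 14 could be tested, of which 1, Ebf1, was called higher. Of 10 late erythroid genes tested 1, Slc4a1, was called higher (log2 fold change 0.69, edgeR adjusted p = 0.0175) and none lower. At an adjusted p under 0.05 with no fold limit 2 rose and 1 fell. Which kidney cells carried the Slc4a1 and Ebf1 RNA was not tested. The 8 hemoglobin genes summed to between 250 and 417 CPM with vehicle. With oxaliplatin they summed to 44.7, 689, 219, 671 and 43.5 CPM in libraries 1 to 5, and none of the 4 tested was called. The part of these cell types in the kidney values of Fancd2 was not tested.

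The genes varied together within groups to different degrees. Over the 10 marrow libraries with group means removed, Pearson's r of log2 CPM was 0.93 for Fancd2 with Fanci, 0.95 for Fancb with Fanci and 0.85 for Fanci with Fancl, and -0.69 for Fanca with Fanci. For Fancd2, Fanci, Fancb and Fancl treated library 3 was the highest of its group and vehicle library 5 the lowest of its group. The r values without these libraries were not computed. In kidney, where Fancd2 and Fanci rested on few counts, r for that pair was 0.03. Over all 20 libraries and 16470 genes, the genes most like Fancd2 were Nxpe4 (r = 0.79), Poc1a (0.78) and Gins1 (0.76), and those most like Fanci were Cenpe (0.84), F2rl3 (0.79) and Gm6245 (0.79). For Fanca they were Braf (0.91), Nsd3 (0.91) and Pan3 (0.88). These values describe libraries that share their depth and composition and carry no test.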

How the data were processed

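The files deposited by the authors hold raw counts for each gene in marrow and kidney, without normalization. Per the paper, reads were aligned by STAR against Ensembl 101 and Partek Flow kept those that were unique and unambiguous, while the submitters' processing notes list STAR 2.7.9a, featureCounts and Salmon. Library chemistry is also given in 2 ways, a SMARTer cDNA kit in the paper and ribosomal RNA removal with random hexamers in the labels. Whether strand was used in counting is not given in the sources used here.

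Each table had 55774 lines, of which 287 repeated an identifier with identical counts and 1 had a missing value, leaving 55486 genes. Positions and exonic lengths came from GENCODE M21 on GRCm38, which holds 55227 of the identifiers. The members and lists were chosen with earlier results of these data known. The comparison with proliferation genes and the promoter letters were added after values were seen. The former was first made in both tissues with a pseudocount and then kept for marrow without one, because some of its genes had 0 counts in kidney. In that first version Fanca, Fance, Fancg, Fancl and Fancm lay lower relative to the list in kidney.

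The filter was filterByExpr (minimum count 10), the scaling TMM and the test that of edgeR 4.0.16 (robust quasi-likelihood, treatment alone, R 4.3.3, limma 3.58.1), with DESeq2 1.42.0 as an alternative. The interaction used all 20 libraries with tissue, treatment and their product. Labels do not say whether kidney and marrow came from the same mice, and p values measure the spread between libraries. No library repeated another within counting noise (lowest chi-square per degree of freedom 7.51). A floor of 3 counts corresponds to between 0.0668 and 0.0975 CPM in marrow and between 0.09 and 0.13 CPM in kidney and covers counting error only.

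Named genes were all 10 members, from each repair, proliferation and p53 list the 2 called genes with the largest rise and fall in each tissue, Usp1, Ube2t, Brca1, Brca2, Mki67 and Cdkn1a, and the 3 genes most like Fancd2, Fanci and Fanca. Xrcc2, Ercc1, Slx4, Rev3l, Rev1, Dclre1a, Dclre1b, Slx1b, Kap, Cubn, Slc5a12, Spp1, Lcn2, Bard1, Topbp1, Hus1, Perp, Ebf1, Cd3e, Slc4a1, Blm in marrow, the overlapping genes and the most abundant markers were named after their values were seen. So were Csf1r, Mrc1, C1qa, C1qb, C1qc, Ccr2, Ms4a6c, Ly86, Cd5l and Kdm5d in marrow. An item that this rule names is not reported here. Alternatives were other scalings, filters, a Y-linked covariate, a replicate block, a test against 1.5-fold and leaving out each library. The tests were run on simulated data with known changes, where the share recovered in marrow and in the interaction missed the limit first set, and that limit was then lowered. Leaving out marrow oxaliplatin libraries 3 and 4 together was added after the data were seen. Plots used Python 3.11.15 and matplotlib 3.10.9.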

Additional observations from a re-analysis of the deposited data

Results flagged for a closer look

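Among 40 groups of 5 libraries, 1 per gene, tissue and treatment, 3 held a library far from the other 4 by Dixon's criterion, which chance gives in about 1 of 20 groups. These were marrow oxaliplatin library 3 for Fancb (6.85 CPM) and Fanci (29.0 CPM), and kidney oxaliplatin library 1 for Fanci (0.251 CPM, from 7 counts). The log2 change in kidney lay above that in marrow for Fanca (0.61), Fancc (0.72), Fancd2 (1.88), Fanci (1.68) and Fancl (0.80) by the tested interaction.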

How the results depend on the processing

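Fancd2, Fanci and Fancl fell at an adjusted p under 0.05 in marrow under each of 20 alternatives, with log2 fold changes between -0.98 and -0.70, -1.17 and -0.86, and -1.26 and -0.90. Testing against 1.5-fold left 2730 genes in marrow with 3 of the 10 Fanconi anemia genes, and 454 genes in kidney with 0. Library size alone moved the median log2 fold change of all genes to 0.11 in marrow and 0.16 in kidney, and the higher share of called genes from 49.6% to 63.4% and from 66.8% to 82.7%. It left 3 genes called in marrow (Fancm was lost), gave 2 at an adjusted p under 0.05 in kidney and turned Fance in kidney to 0.0783. A filter of 10 counts in every library removed 3 of the 10 genes in kidney, Fancd2 included, which left 0 called there and 5 with a vehicle level that differed between tissues, against between 7 and 9 under the other alternatives run. Leaving out each library in turn gave between 3 and 5 genes called in marrow and between 1 and 2 in kidney, both called and at an adjusted p under 0.05. It moved Fance in kidney between -0.092 and 0.0116, and the Fancg difference between tissues between -0.0267 and 0.198. Leaving out marrow oxaliplatin libraries 3 and 4 together gave 5130 genes and 5 of the 10 called in marrow, and 6 in the interaction, where Fancm entered (0.58, adjusted p = 0.0297). Except where a filter removed genes, the cause was not tested. Correlations of same-numbered libraries, with group means removed, lay between -0.11 and 0.195. Libraries of unlike number were not correlated for comparison, so these values cannot show whether libraries share mice. A replicate block gave 4968 genes called in marrow and 2017 in kidney, with 4 and 1 of the 10 genes and 5 in the interaction. Depth limits Fancd2, Fanci and Fancb in kidney, where single libraries held between 4 and 37 counts.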
